A study of Mus musculus with 18 samples.

Results

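Tissue macrophages were followed through 10 genes: *Lyz2*, *Cd68*, *C1qa*, *C1qb*, *C1qc*, *Mrc1*, *Fcgr3*, *Adgre1*, *Cx3cr1* and *Aif1*. The genes were listed by name as commonly used macrophage genes, with earlier results of these data known. They are 10 of the 38243 genes counted. All 10 were present in the count table, but several had few fragments, and fragments are therefore given beside the levels.

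RNA-seq was performed on tissue collected by laser capture microdissection from 6 female embryos at E16.5, of strain C57BL/6 by the labels and on a C57BL6/J background by the methods. There were 3 *Fgfr2*+/S252W embryos, which carry 1 copy of a mutation of *Fgfr2* found in Apert syndrome, and 3 unaffected *Fgfr2*+/+ littermates. From each genotype there were 3 libraries of mandibular bone, 3 of Meckel's cartilage (MC), the rod of cartilage beside which the mandible forms, and 3 of mandibular condylar cartilage, 18 in all, with no pooling. Which libraries of different tissues came from the same embryo was inferred from the labels and is not used in the comparisons. The comparisons ask how the mutation alters gene expression in each tissue. The labels and methods do not limit the mutation to one cell type. A substitution leaves the number of fragments on a gene as it is, so the counts give no check of the genotype labels.

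Macrophages are phagocytic cells of the innate immune system that settle in nearly every tissue of the embryo and clear dying cells. They carry surface receptors for opsonized or glycosylated particles, digest what they engulf in lysosomes, and are a main source of the complement protein C1q. In bone they share a precursor with the osteoclast, the multinucleate cell that resorbs mineralized matrix, and some macrophage genes, *Cd68* among them, are also expressed by osteoclasts.

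Library depth, as fragments on genes, lay between 8218548 and 15585778. Osteoblast genes were abundant in bone, with a summed level of 16822 to 34400 TMM-normalized CPM (counts scaled to a common library size) over 8 genes, against 1614 to 4021 in MC and 5018 to 19546 in condylar cartilage, which overlaps bone. Chondrocyte genes reached 31358 to 38626 CPM over 7 genes in condylar cartilage but 364 to 8782 in MC, so the libraries labelled MC carried far less cartilage RNA than those labelled condylar cartilage. *Fgfr2*+/+ MC replicate 1 had the lowest chondrocyte sum of the MC libraries, and *Fgfr2*+/+ bone replicate 3 differed from the other two *Fgfr2*+/+ bone libraries in its mitochondrial share (20.4% against 36.0% and 34.8%). Fitted values without these libraries are given beside some of the results that they change.

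The promoters of the 10 genes were searched for GAGGAA, the core of the PU box bound by PU.1, a transcription factor of the myeloid lineage. RefSeq promoter windows on GRCm38.p6 were at hand for 8 of the 10 genes, and *C1qa* and *Adgre1* had no entry. In the 250 bases before the annotated start, 6 of the 8 genes held the core on one of the strands (*C1qb*, *C1qc*, *Mrc1*, *Aif1*, *Cd68* and *Fcgr3*), and *Lyz2* and *Cx3cr1* did not. Of all 27025 genes with a window, 25.9% held it. A match describes the sequence and not a bound site. Those of 5 genes are shown so that the sequence around the core can be compared. The match of *Aif1* is not shown, because the bases after its annotated start were not found in an *Aif1* transcript. For *Fcgr3* the RefSeq start lies inside the gene as the count annotation draws it, not at its end. Each is written 5′ to 3′ on the strand of its gene with up to 10 bases on either side, the core or its reverse complement TTCCTC in capitals:
C1qb, chr4:136886215-136886240, minus strand, core 30 bases before the start: agcaggatggGAGGAAcagaggggtg
C1qc, chr4:136893092-136893117, minus strand, core 193 bases before the start: cggcagacacTTCCTCattttggcac
Mrc1, chr2:14229224-14229249, plus strand, core 180 bases before the start: cctacacatgTTCCTCtctccccttc
Mrc1, chr2:14229369-14229394, plus strand, core 35 bases before the start: aagggacagcTTCCTCtgtcctcctt
Cd68, chr11:69666380-69666405, minus strand, core 225 bases before the start: tcttaccaatGAGGAAagggcttccc
Fcgr3, chr1:171059395-171059419, minus strand, core 15 bases before the start: gtccatttccTTCCTCtttttgtag
Another match in *Mrc1*, 167 bases before the start, overlaps the flanking bases of the first of those shown but not its core.

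Among the *Fgfr2*+/+ libraries, the macrophage genes were read in bone and MC and were near the limit of detection in condylar cartilage. In condylar cartilage *Cd68* had 15 to 27 fragments per library and *Lyz2* 5 to 31, *C1qa* was detected by 1 fragment in 3 libraries, and the sum over the 10 genes was 4.49 to 10.1 CPM, against 112 to 136 in bone and 29.9 to 80.7 in MC. A lower level in a bulk sample can come from fewer macrophages or from less RNA per macrophage, and these cannot be told apart here. Differences were tested with limma on voom-transformed counts of all 18 libraries, with the threshold at an adjusted p below 0.05 (Benjamini-Hochberg method). *Lyz2*, *C1qb*, *C1qc* and *Cd68* were among the 11469 genes with over 1 FPKM (CPM per kilobase of exon) in 50% or more of the libraries, and they are given from that fit. *Mrc1*, *Fcgr3*, *Adgre1*, *Cx3cr1* and *C1qa* were not, and are given from a fit with edgeR's more permissive filterByExpr filter, which kept 14881 genes. *Aif1* passed neither filter and is given by its counts alone. In the plot of the 10 genes by library, condylar cartilage lies at or near 0 in each panel.

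**Figure D1:**
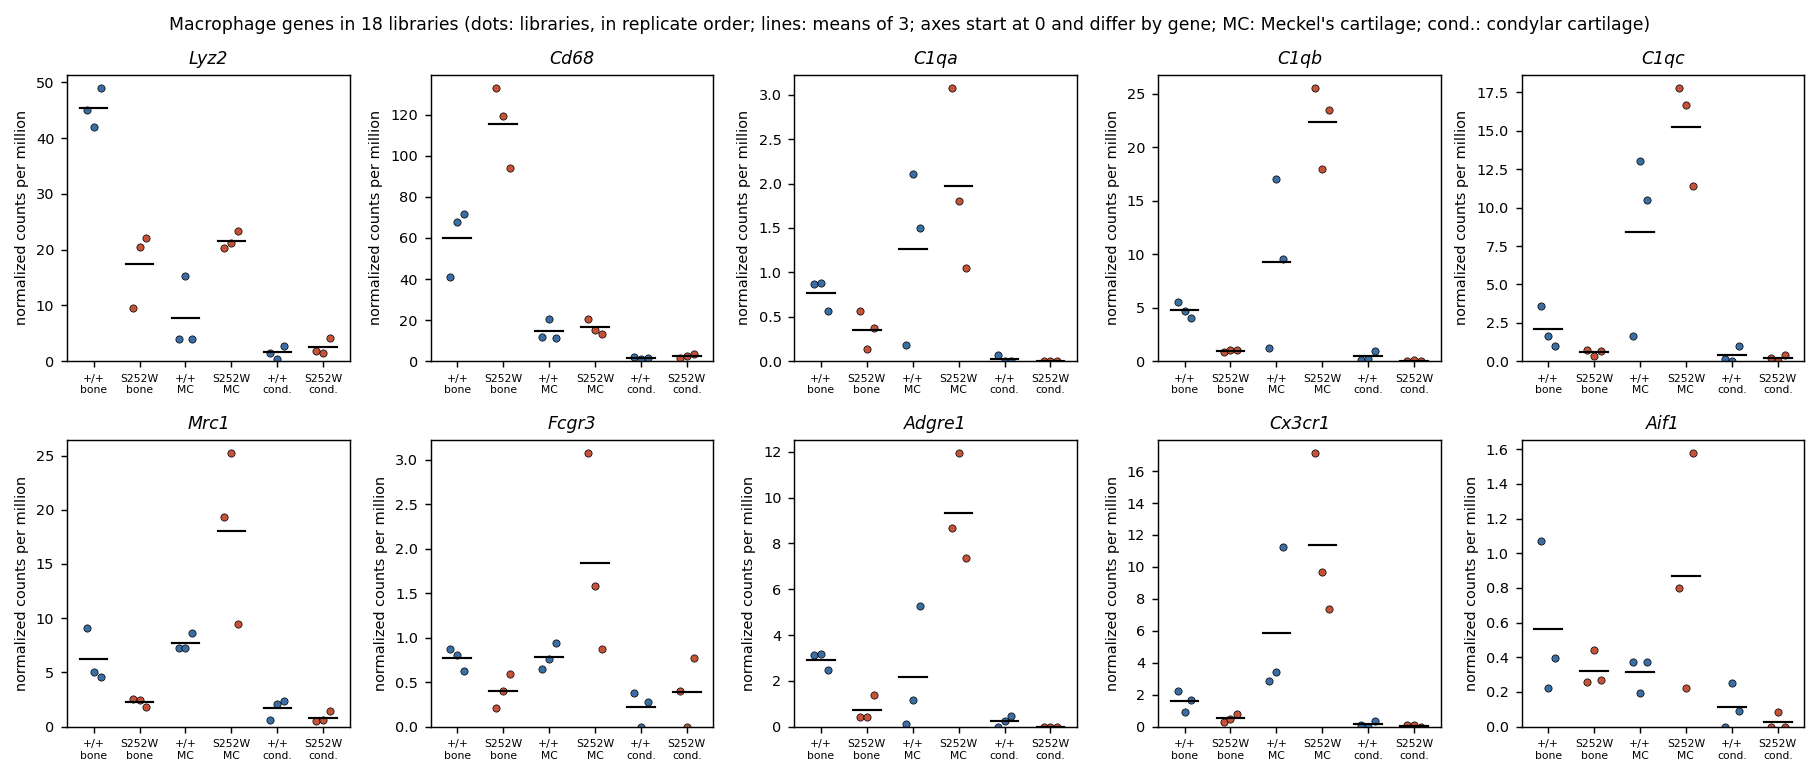
TMM-normalized CPM of the 10 macrophage genes in the 18 libraries, by genotype (+/+ in blue, S252W in red) and tissue, with a dot for each library and a line for the mean of 3. In bone, all 3 *Fgfr2*+/S252W libraries lie below all 3 *Fgfr2*+/+ libraries for 8 genes and above them for Cd68, and in MC they lie above them for Lyz2, C1qb, Mrc1 and Adgre1.

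The lysosomal genes were the most abundant in bone. *Lyz2* (ENSMUSG00000069516, chr10:117277334-117282274, minus strand of GRCm38) encodes lysozyme M, an enzyme that cleaves bacterial cell walls. In the *Fgfr2*+/+ libraries its level was 45.1, 41.96 and 48.95 CPM in bone, 3.996, 15.3 and 3.94 in MC and 1.503, 0.415 and 2.797 in condylar cartilage. Every bone library lay above every library of either cartilage, with a log2 fold change of 2.97 over MC (SE 0.45, limma adjusted p = 6.51e-05) and 5.18 over condylar cartilage (SE 0.63, adjusted p = 1.87e-06). Between condylar cartilage and MC the log2 fold change of *Lyz2* was -2.21 (SE 0.73, adjusted p = 0.0177), a call that was lost without *Fgfr2*+/+ MC replicate 2 (-1.66, adjusted p = 0.0789) or condylar cartilage replicate 2 (-1.49, adjusted p = 0.101). *Cd68* (ENSMUSG00000018774, chr11:69664213-69666153, minus strand) encodes a glycoprotein of the lysosomal membrane. Its level was 40.9, 67.6 and 71.8 CPM in bone, 11.6, 20.5 and 11.4 in MC and 2.03, 1.25 and 1.805 in condylar cartilage, so that the 3 tissues did not overlap. The log2 fold change of *Cd68* in bone was 2.11 over MC (SE 0.30, limma adjusted p = 3.02e-05) and 5.10 over condylar cartilage (SE 0.47, adjusted p = 6.46e-08), and it was -2.99 in condylar cartilage over MC (SE 0.52, adjusted p = 9.36e-05).

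The 3 genes of C1q, the recognition protein of the classical complement pathway, lie side by side on chromosome 4. *C1qb* (ENSMUSG00000036905, chr4:136880129-136886187, minus strand) stood at 5.55, 4.69 and 4.07 CPM in *Fgfr2*+/+ bone, 1.21, 17.03 and 9.56 in MC and 0.15, 0.249 and 0.993 in condylar cartilage. MC replicate 1 lay below every bone library and the other two MC libraries above them. Accordingly the *C1qb* difference between bone and MC was close to 0 (log2 fold change 0.11, SE 0.58, limma adjusted p = 0.904), and without MC replicate 1 it was -1.42 (adjusted p = 0.00267). *C1qc* (ENSMUSG00000036896, chr4:136889804-136893065, minus strand) stood at 3.61, 1.61 and 1.02 CPM in bone, 1.67, 13.01 and 10.5 in MC and 0.15, 0 and 0.993 in condylar cartilage. Here, too, MC replicate 1 was the lowest of the MC libraries. *C1qa* (ENSMUSG00000036887, chr4:136895917-136898803, minus strand) had far fewer fragments, 10 to 13 per bone library, 2 to 11 per MC library and 0 to 1 per condylar cartilage library. Both *C1qb* and *C1qc* were higher in bone than in condylar cartilage (3.66, SE 0.95, limma adjusted p = 0.00454, and 3.20, SE 1.19, adjusted p = 0.0403, as log2 fold changes), the latter not without *Fgfr2*+/+ condylar cartilage replicate 1 (adjusted p = 0.114) or replicate 2 (log2 fold change 2.08, adjusted p = 0.198).

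Among the receptor genes, *Mrc1* had the most fragments in bone. *Mrc1* (ENSMUSG00000026712, chr2:14229414-14332057, plus strand) encodes the mannose receptor CD206, which takes up glycoproteins. Its *Fgfr2*+/+ levels were 9.1, 5.06 and 4.57 CPM in bone, 7.25, 7.27 and 8.62 in MC and 0.601, 2.08 and 2.35 in condylar cartilage. Bone exceeded condylar cartilage (log2 fold change 2.02, SE 0.54, limma adjusted p = 0.00554, but 1.37 and adjusted p = 0.0618 without condylar cartilage replicate 1). *Fcgr3* (ENSMUSG00000059498, chr1:171051175-171064935, minus strand), a low-affinity receptor for IgG, had 11 to 13 fragments per library in bone, 4 to 7 in MC and 0 to 5 in condylar cartilage. *Adgre1* (ENSMUSG00000004730, chr17:57358686-57483529, plus strand), which encodes the surface antigen F4/80, stood at 3.14, 3.15 and 2.48 CPM in bone and 0.0929, 1.15 and 5.25 in MC, and had 0 to 5 fragments in condylar cartilage. The bone libraries were close together while the MC libraries spread from 1 to 28 fragments. *Cx3cr1* (ENSMUSG00000052336, chr9:119901616-120068283, minus strand), the receptor of the chemokine fractalkine, stood at 2.21, 0.88 and 1.64 CPM in bone and 2.88, 3.44 and 11.2 in MC, and had 0 to 4 fragments in condylar cartilage. Every MC library lay above every bone library for *Cx3cr1* (log2 fold change of bone over MC -1.51, SE 0.56, limma adjusted p = 0.0466), but the call was lost in 5 of the 6 fits that left out 1 of these libraries (adjusted p 0.0526 to 0.221). *Aif1* (ENSMUSG00000024397, chr17:35170991-35176001, minus strand), the calcium-binding protein IBA1, had 3 to 16 fragments in bone, 1 to 4 in MC and 0 to 3 in condylar cartilage, and no group of it stood apart from the others.

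In counts, 9 of the 10 genes were higher in all 3 *Fgfr2*+/+ bone libraries than in all 3 of condylar cartilage, and *Aif1* overlapped, while 28.2% of all genes kept by filterByExpr lay on that side. In the limma fits 8 of the 9 testable genes passed, the exception being *Fcgr3* (adjusted p = 0.0842), against 37.4% and 38.3% of all genes under the FPKM filter and filterByExpr. For condylar cartilage below MC, 8 genes did not overlap (all but *Adgre1* and *Aif1*, with a background of 22.8%) and 7 of 9 passed, all but *Adgre1* (adjusted p = 0.165) and *Fcgr3* (adjusted p = 0.0893), with 45.0% and 42.3% of all genes passing. Without *Fgfr2*+/+ MC replicate 1 *Adgre1* passed as well (log2 fold change -3.79, adjusted p = 0.0035). Between bone and MC, *Lyz2* and *Cd68* lay above in bone and *Cx3cr1* below without overlap, where 21.3% of all genes lay above and 18.3% below. These 3 genes were also those that passed, and 34.0% and 32.1% of all genes passed.

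In mandibular bone *Lyz2* was lower in *Fgfr2*+/S252W than in *Fgfr2*+/+ embryos, 7 further macrophage genes lay lower without passing the test, and *Cd68* lay higher. The level of *Lyz2* was 45.1, 41.96 and 48.95 CPM in *Fgfr2*+/+ and 9.52, 20.5 and 22.1 CPM in *Fgfr2*+/S252W bone. The lowest *Fgfr2*+/+ library was above the highest *Fgfr2*+/S252W library, and *Fgfr2*+/S252W replicate 1 was the lowest of the 6. *Lyz2* fell by 1.47 on the log2 scale (SE 0.28, 95% interval -2.06 to -0.88, limma adjusted p = 0.0483) and was the only one of the 10 genes to pass under the FPKM filter, with which 10 of 11469 genes passed in bone, 0.0872%. Its adjusted p was close to the threshold. It stayed below 0.05 without *Fgfr2*+/+ replicate 3 (log2 fold change -1.41, adjusted p = 0.0467). It did not without *Fgfr2*+/+ replicate 1 (-1.48, adjusted p = 0.39) or 2 (-1.53, adjusted p = 0.156), or without *Fgfr2*+/S252W replicate 1 (-1.09, adjusted p = 0.344), 2 (-1.65, adjusted p = 0.22) or 3 (-1.68, adjusted p = 0.0868). With edgeR it was 0.797 and with DESeq2 0.344. The call held in 7 of 12 alternative fits and was lost in 5, among them also the replicate block and library totals in place of TMM.

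*Cd68* stood the other way round, at 40.9, 67.6 and 71.8 CPM in *Fgfr2*+/+ and 133, 119 and 94.1 CPM in *Fgfr2*+/S252W bone. All 3 *Fgfr2*+/S252W libraries were above all 3 *Fgfr2*+/+ libraries. The log2 fold change was 0.97 (SE 0.20, 95% interval 0.56 to 1.38, limma adjusted p = 0.0754), which did not pass, and with filterByExpr it was 0.98 with an adjusted p of 0.049, which did. Without *Fgfr2*+/+ replicate 3 the *Cd68* value was 1.13 (adjusted p = 0.0204), and without each of the other 5 bone libraries the adjusted p was between 0.0868 and 0.593. Of 12 alternative fits *Cd68* passed in 5, filterByExpr among them.

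C1q transcripts lay lower in *Fgfr2*+/S252W bone, though none of the 3 genes passed. *C1qb* stood at 5.55, 4.69 and 4.07 CPM in *Fgfr2*+/+ and 0.87, 1.02 and 1.02 CPM in *Fgfr2*+/S252W bone, without overlap and with 64 to 83 fragments per library against 17 to 23. Its log2 fold change was -2.25 (SE 0.69, 95% interval -3.70 to -0.81), but the limma adjusted p of 0.324 did not pass. *C1qc* stood at 3.61, 1.61 and 1.02 CPM and 0.717, 0.355 and 0.642 CPM, again without overlap (log2 fold change -1.68, SE 0.90, adjusted p = 0.673). The summed level of the 3 C1q genes was 5.65 to 10.04 CPM in *Fgfr2*+/+ and 1.51 to 2.15 CPM in *Fgfr2*+/S252W bone. The sum over all 10 genes was 112 to 136 and 123 to 148 CPM and overlapped. *Cd68* was its largest part in every bone library but *Fgfr2*+/+ replicate 1, where *Lyz2* was. *C1qa*, at 0.87, 0.88 and 0.565 CPM against 0.563, 0.133 and 0.375 CPM, was separated only by the third digit, and its fragments (10 to 13 against 3 to 11) overlapped (log2 fold change -1.24, SE 0.75, adjusted p = 0.736).

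Among the receptors, *Mrc1* stood at 9.1, 5.06 and 4.57 CPM in *Fgfr2*+/+ and 2.51, 2.48 and 1.82 CPM in *Fgfr2*+/S252W bone (log2 fold change -1.37, SE 0.42, 95% interval -2.24 to -0.50, limma adjusted p = 0.286). *Adgre1* stood at 3.14, 3.15 and 2.48 CPM and 0.409, 0.399 and 1.39 CPM (log2 fold change -2.20, SE 0.71, 95% interval -3.69 to -0.72, adjusted p = 0.322). *Cx3cr1* stood at 2.21, 0.88 and 1.64 CPM and 0.307, 0.443 and 0.803 CPM (log2 fold change -1.60, SE 0.71, 95% interval -3.07 to -0.12, adjusted p = 0.569). In these 3 genes the genotypes did not overlap and the interval lay below 0, yet none passed. *Mrc1* and *Adgre1* each passed in 2 of 11 alternative fits, with sample quality weights (adjusted p = 0.0168 and 0.00531) and with only the bone libraries and the replicate block, chosen after seeing the data (adjusted p = 0.00788 and 0.0314). *C1qb* passed in 3 of 12 (lowest adjusted p = 0.00105, with sample quality weights), *C1qc* in 1 (adjusted p = 0.0421) and *Cx3cr1* in 0 of 11. These fits called far more genes in all, 756 of 14881 with filterByExpr and 589 of 11469 with the FPKM filter for quality weights, and 505 of 13616 and 539 of 12322 for the bone libraries with the block. *Fcgr3*, with 11 to 13 fragments against 4 to 11, was at a log2 fold change of -0.99 (SE 0.77, adjusted p = 0.853). *Aif1* had 3 to 16 fragments in *Fgfr2*+/+ and 5 to 10 in *Fgfr2*+/S252W bone, and the genotypes overlapped.

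Counted over genes, all 3 *Fgfr2*+/S252W bone libraries lay below all 3 *Fgfr2*+/+ libraries in 8 of the 10 genes, where 10.3% of all genes did, and above them in 1 gene, where 9.77% did. Among the 8, *C1qa* (0.565 against 0.563 CPM) and *Fcgr3* (0.621 against 0.589 CPM) were parted only narrowly, and their fragments met or overlapped. The median log2 fold change over the 9 genes with enough counts was -1.46, against -0.0014 over all genes tested. Because the 10 genes were chosen with earlier results of these data known, these comparisons with all genes are descriptive. Under filterByExpr 2 of the 9 passed in limma, *Lyz2* lower and *Cd68* higher (6 at an unadjusted p below 0.05), while 0.141% of all genes passed. With edgeR 0 passed (7 unadjusted) and with DESeq2 0 (7 unadjusted). Counts at an unadjusted p below 0.05 are given without the share of all genes, except for limma in MC.

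Summed levels of genes of other cells stood apart in some bone libraries, though of 8 skeletal muscle and 8 red blood cell genes 0 passed in limma (8 and 7 at an unadjusted p below 0.05), 0 in edgeR (8 and 4) and 0 in DESeq2 (4 and 4). The summed level of 8 skeletal muscle genes was 781, 729 and 135 CPM in the 3 *Fgfr2*+/+ bone libraries and 57.0, 62.9 and 137 CPM in the *Fgfr2*+/S252W libraries. That of 8 red blood cell genes was 1285 to 1533 CPM against 324 to 618. *Fgfr2*+/+ replicate 3 had a muscle sum inside the *Fgfr2*+/S252W range but a red blood cell sum of 1361 CPM, above that range. Its *Lyz2* level was 48.95 CPM and its *C1qb* level 4.07 CPM. The 7 chondrocyte genes summed to 89.2 to 238 CPM in *Fgfr2*+/+ and 287 to 388 CPM in *Fgfr2*+/S252W bone. *Gm42418*, a transcript with many fragments, took 8.57 to 9.33% and 5.58 to 6.49% of the fragments, and mitochondrial genes 20.4 to 36.0% and 23.4 to 23.6%. The part of any of these in the macrophage values was not tested. Endothelial genes were at 220 to 294 and 232 to 246 CPM. The plot of summed levels sets C1q beside osteoclast, muscle and red blood cell genes.

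**Figure D2:**
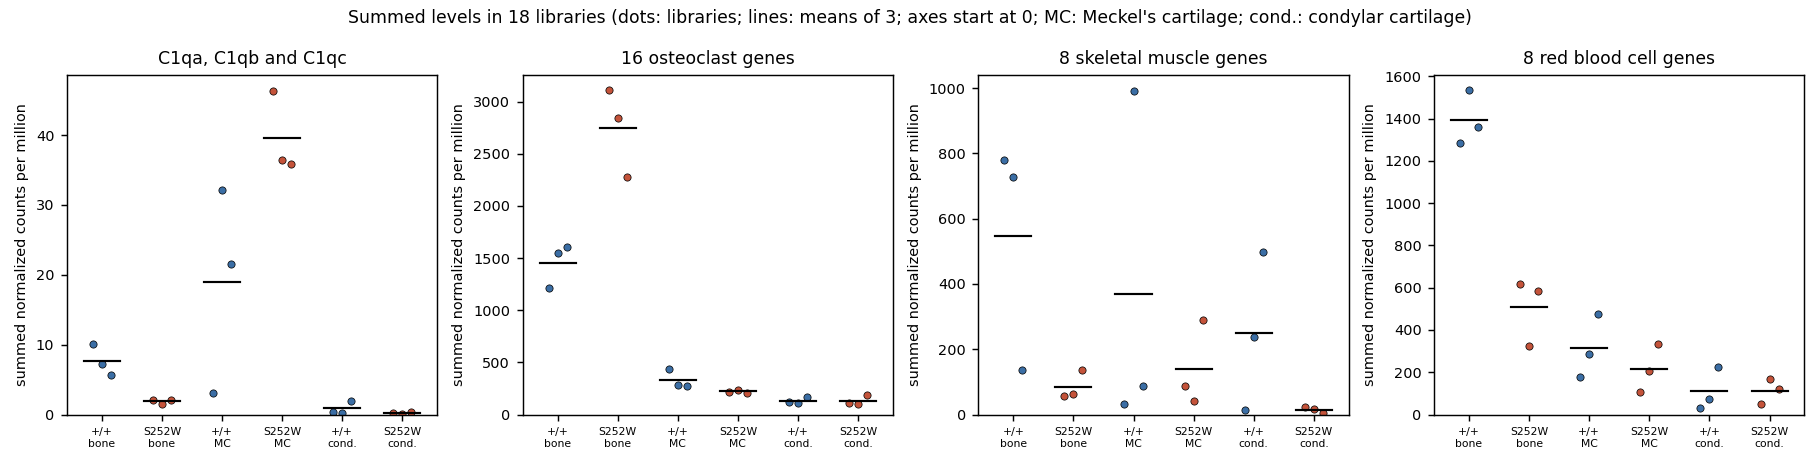
Summed TMM-normalized CPM of the 3 C1q genes, 16 osteoclast genes, 8 skeletal muscle genes and 8 red blood cell genes in the 18 libraries, with a dot for each library and a line for the mean of 3. In bone, C1q was 5.65 to 10.04 CPM in *Fgfr2*+/+ and 1.51 to 2.15 in *Fgfr2*+/S252W libraries, osteoclast genes were higher and red blood cell genes lower in *Fgfr2*+/S252W libraries, and 1 *Fgfr2*+/+ library had a muscle sum within the *Fgfr2*+/S252W range.

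In MC the fitted level of all 9 testable genes was higher in *Fgfr2*+/S252W than in *Fgfr2*+/+ embryos, and none passed the test. *Lyz2* was at 3.996, 15.3 and 3.94 CPM in *Fgfr2*+/+ and 20.3, 21.2 and 23.3 CPM in *Fgfr2*+/S252W MC. The 3 *Fgfr2*+/S252W libraries were close together and above all *Fgfr2*+/+ libraries, of which replicate 2 was the highest. The log2 fold change was 1.90 (SE 0.50, 95% interval 0.86 to 2.94, limma adjusted p = 0.105), and without *Fgfr2*+/+ replicate 2 it was 2.43 (adjusted p = 0.046). *C1qb* was at 1.21, 17.03 and 9.56 CPM in *Fgfr2*+/+ and 25.5, 18.01 and 23.5 CPM in *Fgfr2*+/S252W MC (log2 fold change 2.36, SE 0.54, 95% interval 1.23 to 3.50, adjusted p = 0.0894). The groups did not overlap, but the highest *Fgfr2*+/+ library was just under the lowest *Fgfr2*+/S252W library. The size of the *C1qb* difference rested on *Fgfr2*+/+ replicate 1, without which it was 0.84 (adjusted p = 0.269). Without replicate 2 or 3 it was 3.07 (adjusted p = 0.0197) and 2.78 (adjusted p = 0.0473).

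*Adgre1* showed the largest fitted difference of the 9 genes in MC, at 0.0929, 1.15 and 5.25 CPM in *Fgfr2*+/+ and 8.69, 11.9 and 7.35 CPM in *Fgfr2*+/S252W libraries. The genotypes did not overlap. Its log2 fold change was 3.55 (SE 0.81, 95% interval 1.87 to 5.22, limma adjusted p = 0.0988). As 1 fragment was counted in *Fgfr2*+/+ replicate 1, this size depends on that library, and without it the value was 1.81 (adjusted p = 0.253). Without replicate 3 it was 4.65 (adjusted p = 0.049). *Mrc1* was at 7.25, 7.27 and 8.62 CPM and 19.4, 25.2 and 9.45 CPM, also without overlap (log2 fold change 1.08, SE 0.40, 95% interval 0.25 to 1.91, adjusted p = 0.222).

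The other 6 genes overlapped between genotypes in MC. *C1qc* was at 1.67, 13.01 and 10.5 CPM in *Fgfr2*+/+ and 17.8, 16.7 and 11.4 CPM in *Fgfr2*+/S252W MC (log2 fold change 1.64, SE 0.58, limma adjusted p = 0.198), and *Cx3cr1* at 2.88, 3.44 and 11.2 and 17.1, 9.68 and 7.35 CPM (1.32, SE 0.47, adjusted p = 0.209). *Cd68*, which stood apart in bone, was at 11.6, 20.5 and 11.4 CPM and 20.7, 15.3 and 13.3 CPM, with a log2 fold change of 0.29 and a 95% interval from -0.47 to 1.04 (adjusted p = 0.745). *C1qa* had 2 to 11 fragments in *Fgfr2*+/+ and 6 to 23 in *Fgfr2*+/S252W MC (log2 fold change 1.30, SE 0.76, adjusted p = 0.43, and 0.068 without *Fgfr2*+/+ replicate 1, adjusted p = 0.986). *Fcgr3* had 4 to 7 and 5 to 23 fragments (1.08, SE 0.83, adjusted p = 0.565), and *Aif1* 1 to 4 and 1 to 9.

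Thus 4 of the 10 genes lay above without overlap in MC, where 6.9% of all genes did. The median log2 fold change over 9 genes was 1.32, against 0.05 over all genes tested, and all 9 were positive. Without *Fgfr2*+/+ replicate 1 the values of *C1qb*, *Adgre1* and *C1qa* fell to 0.84, 1.81 and 0.068. No median was computed without that library. No gene of the whole table passed in limma in MC (0.0% under the FPKM filter and 0.0% under filterByExpr, with 1761 and 2200 genes at an unadjusted p below 0.05). Of the 9 genes 6 had an unadjusted p below 0.05 in limma, 4 in edgeR and 4 in DESeq2, and 0 passed in either of the latter. With filterByExpr edgeR passed 61 genes of the whole table and DESeq2 443. The libraries labelled MC also differed in the RNA of other cells. *Fgfr2*+/+ replicate 1 had the lowest chondrocyte sum (364 CPM) and the lowest C1q sum (3.07 CPM, against 32.1 and 21.6 in the other two). The muscle sum was 30.9, 992 and 88.3 CPM in *Fgfr2*+/+ and 87.8, 41.2 and 290 CPM in *Fgfr2*+/S252W MC. *Gm42418* took 24.1 to 39.4% of the fragments in *Fgfr2*+/+ and 33.6 to 39.2% in *Fgfr2*+/S252W MC. Mitochondrial genes took 26.3 to 38.1% and 30.6 to 35.4%. The TMM factor was 1.09 in *Fgfr2*+/+ replicate 1 and 0.491 to 0.734 in the other MC libraries. The part of these in the macrophage values was not tested.

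**Figure D3:**
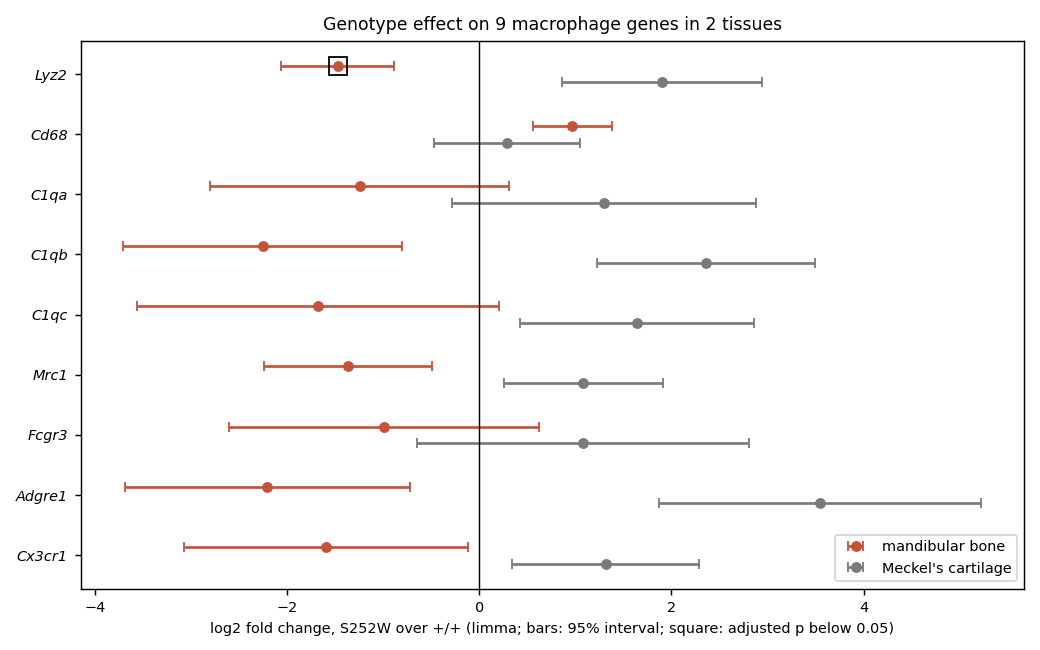
Log2 fold change of *Fgfr2*+/S252W over *Fgfr2*+/+ with its 95% interval for 9 macrophage genes in mandibular bone (red) and MC (grey), from limma fits of 18 libraries, with a square where the adjusted p was below 0.05. In 8 genes the bone value is below 0 and the MC value above it, Cd68 is above 0 in both, and the square marks Lyz2 in bone.

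Whether the genotype effect differed between bone and MC was tested as an interaction. For *Lyz2* the effect in bone minus that in MC was -3.37 on the log2 scale (SE 0.57, 95% interval -4.57 to -2.18, limma adjusted p = 0.0292), and it passed in a comparison where 0.0523% of all genes did (6 of 11469). The call held in 5 of 12 fits that left out 1 library. It was lost without *Fgfr2*+/S252W MC replicate 1 (adjusted p = 0.0702), 2 (adjusted p = 0.0649) or 3 (adjusted p = 0.0945), *Fgfr2*+/+ bone replicate 1 (adjusted p = 0.0671) or 2 (adjusted p = 0.0583), or *Fgfr2*+/+ MC replicate 1 (-2.95, adjusted p = 0.102) or 3 (adjusted p = 0.0554). By edgeR the adjusted p was 0.142 and by DESeq2 0.0134. For *Adgre1* the difference was -5.75 (SE 1.08, 95% interval -7.99 to -3.51, adjusted p = 0.0441), but -3.99 (adjusted p = 0.133) without *Fgfr2*+/+ MC replicate 1. Of the 12 fits that left out 1 library, *Adgre1* passed only without *Fgfr2*+/+ MC replicate 2 (adjusted p = 0.0407) or 3 (adjusted p = 0.0221), and the highest adjusted p was 0.192. *C1qb* was just outside the threshold under the FPKM filter (-4.62, SE 0.88, adjusted p = 0.056) and inside it under filterByExpr (-4.60, adjusted p = 0.0483). Without *Fgfr2*+/+ MC replicate 1 the *C1qb* value was -3.08 (adjusted p = 0.0377), and under the FPKM filter it passed in 3 of the 12 fits that left out 1 library, with an adjusted p of up to 0.262.

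The other 6 testable genes did not pass in this comparison. The interaction was -2.45 for *Mrc1* (SE 0.58, limma adjusted p = 0.156), -2.91 for *Cx3cr1* (SE 0.85, adjusted p = 0.214) and -3.32 for *C1qc* (SE 1.08, adjusted p = 0.279). *C1qa* and *Fcgr3* were at -2.54 (adjusted p = 0.395) and -2.07 (adjusted p = 0.499). With 1 library left out they ranged from -3.10 to -1.29 and from -2.48 to -1.53, and neither passed. *Cd68* was the only positive value, at 0.68 (95% interval -0.18 to 1.55, adjusted p = 0.551). Under filterByExpr 3 of the 9 genes passed in limma, where 0.0806% of all genes did. With edgeR 0 passed (6 at an unadjusted p below 0.05), and with DESeq2 3 did, *Mrc1*, *C1qb* and *Lyz2*, where DESeq2 passed 128 of all 14881 genes.

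In condylar cartilage no difference between genotypes was detectable, and for most of these genes the depth would not show one. *Lyz2* was at 1.503, 0.415 and 2.797 CPM in *Fgfr2*+/+ and 1.87, 1.46 and 4.23 CPM in *Fgfr2*+/S252W libraries, and *Cd68* at 2.03, 1.25 and 1.805 and 1.47, 2.41 and 3.59 CPM. Both overlapped between genotypes, with log2 fold changes of 0.80 (SE 0.78) and 0.38 (95% interval -0.88 to 1.65). *Mrc1*, with 7 to 26 fragments per library, was next. No fragment of *C1qa* or of *Adgre1* was counted in the 3 *Fgfr2*+/S252W condylar cartilage libraries, which allows a level of up to 0.0873 CPM over the group (3 fragments, counting error only). *C1qb* was the 1 gene of 10 in which the *Fgfr2*+/S252W libraries lay below without overlap, with 0 to 1 fragments against 2 to 11, where 5.34% of all genes did. None of the 9 genes passed in limma (0 at an unadjusted p below 0.05), edgeR (2 unadjusted) or DESeq2 (2 unadjusted), and 0.0% of all genes passed in limma under either filter (0.0% with filterByExpr).

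Compared per length of exon, the order of the genes differed between tissues. In *Fgfr2*+/+ bone the mean level was 47.8 ± 13.3 FPKM (SD, n = 3) for *Cd68* and 35.8 ± 2.77 for *Lyz2*, then 4.39 ± 0.687 for *C1qb* and 1.73 ± 1.13 for *C1qc*, with the other 6 genes between 0.421 and 1.17. The ranges of *Cd68* and *Lyz2* overlapped. In *Fgfr2*+/S252W bone *Cd68* was at 91.9 FPKM and *Lyz2* at 13.7 ± 5.39, with *C1qb* at 0.891 and the rest below it. In *Fgfr2*+/S252W MC the first was *C1qb* at 20.5 ± 3.56 FPKM, followed by *Lyz2* at 17.0 ± 1.21, *Cd68* at 13.1 ± 3.05 and *C1qc* at 12.7 ± 2.84, neighbours that did not differ beyond their spread. In *Fgfr2*+/+ MC *Cd68* (11.5 ± 4.11), *C1qb* (8.52 ± 7.27), *C1qc* (6.98 ± 4.95) and *Lyz2* (6.12 ± 5.17) likewise overlapped. In condylar cartilage *Cd68* and *Lyz2* were at 1.24 to 1.99 FPKM on average in the 2 genotypes and no other gene exceeded 0.427.

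Across the 18 libraries the genes varied together to different degrees. On the log2 scale *C1qb* correlated with *Adgre1* at 0.93, with *Cx3cr1* at 0.93, with *C1qa* at 0.92 and with *C1qc* at 0.90 (Pearson, n = 18). *Cd68* correlated with *Lyz2* at 0.85 but with *C1qb* at 0.51 and *C1qc* at 0.41. These values share the libraries, their depth and the 3 tissues, and no value within a tissue was computed. The genes outside the set whose pattern was most like the mean log2 level of the 10 genes were *Tspan11* (0.967), *Gulp1* (0.963), *Ehd2* (0.958), *Pik3c2b* (0.958) and *Ifi27* (0.957), over the same 18 libraries and 11469 genes.

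Genes with close copies could lose fragments in counting, because fragments that mapped to several places were left out by the authors. *Lyz1*, the copy of *Lyz2*, had 0 fragments in all 18 libraries, and 15.4% of the 50-base words of the *Lyz2* transcript also occur in *Lyz1*. *Fcgr2b* shares 10.2% of the words of *Fcgr3* and had 0 to 8 fragments per library. The levels of *Lyz2* and *Fcgr3* may therefore be too low by an unknown share. The words of *C1qb* were not found in *C1qa* or *C1qc*.

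A wider list of 30 macrophage genes was split in bone. Of the 27 with enough counts, 14 had a positive and 13 a negative log2 fold change, with a median of 0.02, and the summed level of the 30 was 302 to 320 CPM in *Fgfr2*+/+ and 369 to 437 CPM in *Fgfr2*+/S252W bone, without overlap. Of the 27, 0 passed in limma (10 at an unadjusted p below 0.05), edgeR (3) or DESeq2 (5). The 4 with the smallest p were all higher in *Fgfr2*+/S252W bone, though none passed. *Csf1r*, the receptor of the macrophage growth factor CSF1, which osteoclasts also carry, was at 58.7 to 61.7 CPM in *Fgfr2*+/+ and 96.9 to 132 CPM in *Fgfr2*+/S252W bone (log2 fold change 0.96, SE 0.20, limma adjusted p = 0.0553). *Laptm5*, a lysosomal membrane protein of blood cells, was at 29.4 to 45.7 and 69.8 to 75.5 CPM (0.90, SE 0.20, adjusted p = 0.0873). *Itgb2*, the integrin β chain of leukocytes, was at 10.4 to 17.3 and 23.9 to 30.2 CPM (0.96, adjusted p = 0.146), and the scavenger receptor *Cd163* at 0.734 to 2.27 and 4.15 to 5.67 CPM (1.67, adjusted p = 0.365). In MC 22 of the 27 were positive, with a median of 0.55, and 0 passed in limma (8 unadjusted). In all, 1 gene of this list passed the interaction, where 0.0806% of all genes did with filterByExpr. *Fcgr1*, the high-affinity IgG receptor, named after its values were seen, was at 0.44 to 0.678 and 0.107 to 0.399 CPM in bone and at 0 to 0.279 and 2.45 to 4.5 CPM in MC, *Fgfr2*+/+ first (interaction -5.34, SE 0.96, adjusted p = 0.0367). At least 1 *Fgfr2*+/+ MC library thus held no fragment of *Fcgr1*, and the call is given without fits that left out 1 library.

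The median of the osteoclast genes had the opposite sign to that of the 9 macrophage genes in both tissues, while *Cd68* was positive in bone as they were. In bone all 16 were positive, with a median of 0.89, and 3 rose in limma (16 at an unadjusted p below 0.05). Of all genes kept by filterByExpr, 0.141% passed. With edgeR 0 of the 16 passed (11 unadjusted) and with DESeq2 1, *Oscar*. *Oscar*, an immunoglobulin-like receptor of osteoclasts, was at 11.04 to 14.3 CPM in *Fgfr2*+/+ and 24.9 to 33.7 CPM in *Fgfr2*+/S252W bone (log2 fold change 1.24, SE 0.20, limma adjusted p = 0.0199). The calcitonin receptor gene *Calcr* was at 6.49 to 7.43 and 14.1 to 23.1 CPM (1.41, SE 0.24, adjusted p = 0.0199), and *Slc37a2*, a transporter of sugar phosphates, at 32.0 to 62.4 and 92.3 to 126 CPM (1.21, SE 0.23, adjusted p = 0.0377). *Tnfrsf11a*, which encodes RANK, the receptor for the osteoclast differentiation signal, was at 30.4 to 33.4 and 49.5 to 65.3 CPM and did not pass (0.90, adjusted p = 0.0826). The study gave weight to osteoclast genes from these same samples, so their direction is not independent evidence. It named *Csf1r* and *Tnfrsf11a* among its significantly upregulated bone genes, while neither passed here. Apart from RNA-seq, it reported more *Csf1r* and *Itgb3* signal by in situ hybridization and more stained osteoclasts in *Fgfr2*+/S252W mandibles. In MC 12 of the 16 were negative, with a median of -0.84, and 0 passed in limma (6 unadjusted), against 1 lower in edgeR (*Dcstamp*) and 2 lower in DESeq2 (*Acp5* and *Dcstamp*). The summed osteoclast level was 1211 to 1603 CPM in *Fgfr2*+/+ and 2281 to 3110 CPM in *Fgfr2*+/S252W bone, and 277 to 436 CPM against 208 to 240 CPM in MC. *Cd68* was thus higher in the same bone libraries as this list, and the part of osteoclasts in the *Cd68* value was not tested.

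**Figure D4:**
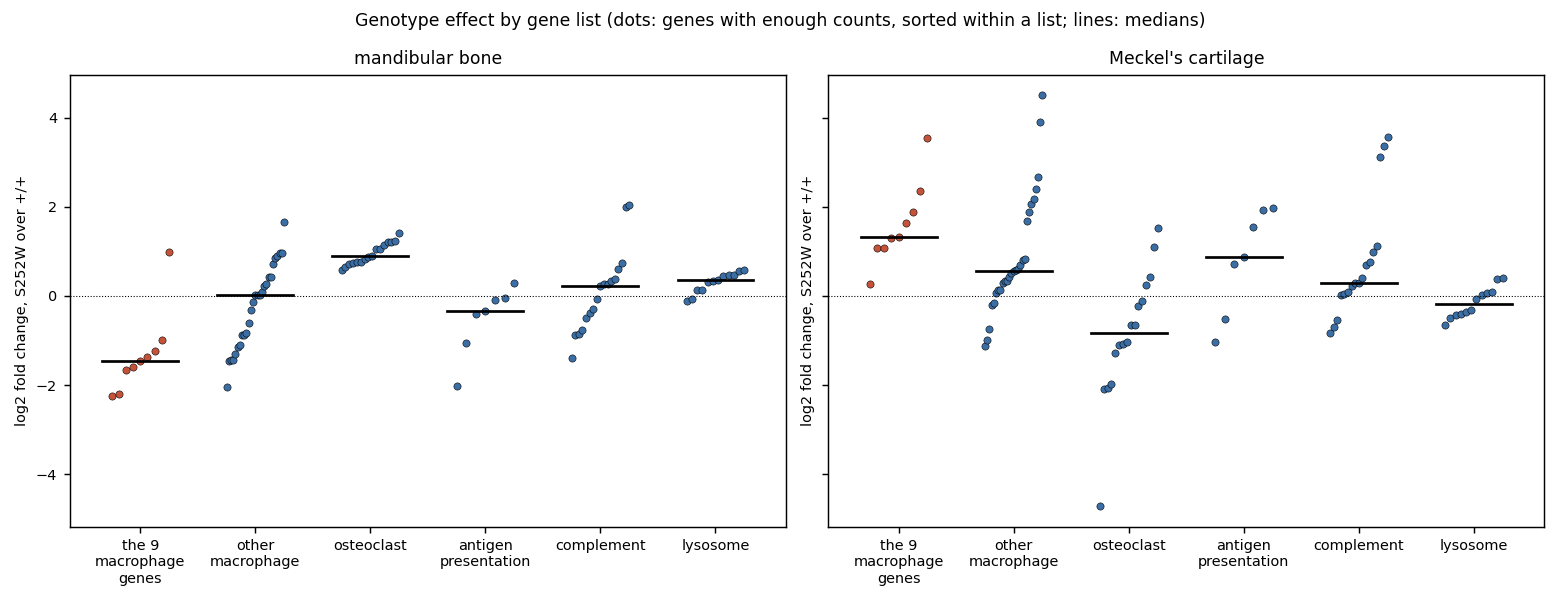
Log2 fold change of *Fgfr2*+/S252W over *Fgfr2*+/+ for single genes of 6 lists in mandibular bone and MC, from the limma fit with filterByExpr, with a dot for each gene, sorted within its list, and a line for the median. In bone 8 of the 9 macrophage genes lie below 0 (median -1.46) and all 16 osteoclast genes above it (median 0.89), and in MC the medians are 1.32 and -0.84.

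Other functions of macrophages showed no gene past the threshold in bone. Of 7 antigen presentation genes 6 were negative (median -0.34, 0 passed in limma and 0 at an unadjusted p below 0.05). The class II genes *Ciita*, their transcriptional regulator, and *H2-Ab1* stood at -1.05 on the log2 scale (limma adjusted p = 0.804) and -2.02 (adjusted p = 0.837). Of 17 complement genes other than C1q 9 were positive (median 0.23, 0 passed and 2 unadjusted). Among these, *C2*, a protease component of the classical pathway downstream of C1q, was at 0.134 to 0.587 CPM in *Fgfr2*+/+ and 0.91 to 1.64 CPM in *Fgfr2*+/S252W bone (1.99, adjusted p = 0.282). Of 12 lysosomal genes expressed in most cells 10 were positive (median 0.35, 0 passed and 5 unadjusted), with the protease gene *Ctsb* at 0.46 (adjusted p = 0.343). Of 7 genes of macrophage growth and recruitment 5 were positive (median 0.34, 0 passed and 3 unadjusted). *Sirpa*, a receptor on macrophages for the signal CD47, was at 28.1 to 36.7 CPM in *Fgfr2*+/+ and 46.8 to 51.4 CPM in *Fgfr2*+/S252W bone (0.62, adjusted p = 0.257). The growth factor gene *Csf1* was at 59.1 to 80.6 and 85.2 to 114 CPM (0.53, adjusted p = 0.517), and *Ccr2*, the chemokine receptor of monocytes, at 1.83 to 3.33 and 0.768 to 1.02 CPM (-1.49, adjusted p = 0.547). The summed level of 6 lymphocyte genes was at most 0.957 CPM in any library.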

How the data were processed

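The authors mapped paired reads to mm10 with STAR and, per the file headers, counted fragments per gene with featureCounts v1.5.0-p1 without regard to strand. The deposited values are raw counts per gene and library. Fragments that mapped to several places were not counted. The RNA was amplified, so the floor of 3 fragments covers counting error only, while limma's intervals cover the spread between libraries.

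Groups came from the labels. Genes with over 1 FPKM in 50% or more of the 18 libraries (11469), or passing filterByExpr (14881), were normalized by TMM, transformed with voom and fitted with limma 3.58.1 to 6 group means in R 4.3.3, with 12 residual degrees of freedom. The p-values were two-sided and adjusted by the Benjamini-Hochberg method over all genes (threshold 0.05). edgeR 4.0.16 and DESeq2 1.42.0 were alternatives, with other filters, scalings, weights and blocks and each library left out. The fits were tested on simulated counts. Members and gene lists were chosen with earlier results of these data known. All 10 members are named, and up to 4 genes per list, from the 4 with the smallest p in bone. *Fcgr1*, *Dcstamp* and *Acp5* were named after their values were seen. 1 result is not reported here.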

Additional observations from a re-analysis of the deposited data

Results flagged for a closer look

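In 2 genes the effect of genotype differed between mandibular bone and MC by the test of the difference itself. For *Lyz2* the effect in bone minus that in MC was -3.37 on the log2 scale (limma adjusted p = 0.0292), with 3 of 3 *Fgfr2*+/S252W libraries below the *Fgfr2*+/+ libraries in bone and 3 of 3 above them in MC. For *Adgre1* it was -5.75 (limma adjusted p = 0.0441), with the same placing of the libraries. The *Adgre1* call failed in 8 of 10 alternative fits and in 10 of 12 fits that left out 1 library, with -3.99 (adjusted p = 0.133) without *Fgfr2*+/+ MC replicate 1. That of *Lyz2* held in 7 of 11 alternative fits and in 5 of 12 that left out 1 library. *C1qb* passed with filterByExpr (-4.60, adjusted p = 0.0483) and not under the FPKM filter (-4.62, adjusted p = 0.056).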

How the results depend on the processing

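The number of genes with an adjusted p below 0.05 depended on the fit. For genotype in bone, 10 in limma, it was 4 with edgeR, 17 with DESeq2, 21 with filterByExpr, 53 without a filter, 1 with library totals alone, 589 with sample quality weights, 141 with only the bone libraries, and 0 to 91 with 1 library left out. For genotype in MC, 0 in limma, it was 90 with edgeR, 423 with DESeq2, 45 without a filter, 1 with the embryo as a block, and 0 to 138 with 1 library left out. For genotype in condylar cartilage, 0 in limma, it was 3 with DESeq2, 2 with quality weights, and 0 to 0 with 1 library left out. For bone against MC in *Fgfr2*+/+ (3897) it was 5916 without a filter, 6110 with library totals alone and 2951 to 4365 with 1 library left out, and the same ranges were 3406 to 3872 for bone against condylar cartilage (4288) and 4395 to 4996 for condylar cartilage against MC (5162). The interaction of bone and MC (6) gave 95 with DESeq2, 12 with filterByExpr, 16 without a filter, 0 with library totals alone, 10 with quality weights and 0 to 27 with 1 library left out. The interaction of bone and condylar cartilage (0) gave 5 with DESeq2, 13 with quality weights and 0 to 1, and that of condylar cartilage and MC (0) gave 93 with DESeq2 and 0 to 0. The causes were not tested.

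Equal replicate numbers of the genotypes did not pair the libraries: their deviations from group means correlated at 0.045 on average, over 0.1 in 3 of 9 pairs. The replicate block gave 12 genes in bone and 1 for the interaction of bone and MC, and with only the libraries of the tissue, chosen after seeing the data, 539 in bone and 6 in condylar cartilage. The replicate block also took the adjusted p of *Lyz2* in bone to 0.0569.

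*C1qb* in *Fgfr2*+/+ bone over MC (0.11) changed sign with edgeR (-0.92), DESeq2 (-0.96), quality weights (-0.44) and the replicate block (-0.46), and ranged from -1.42 to 0.82 with 1 library left out (-0.016 without *Fgfr2*+/+ bone replicate 1). Library totals in place of TMM moved the median of all genes to 0.18 for genotype in bone, 0.95 for *Fgfr2*+/+ bone over MC and 0.81 for condylar cartilage over MC. The signs of the values recomputed under it were kept, which for bone over MC were those of *Lyz2*, *Cd68*, *C1qb* and *Cx3cr1* alone, and the calls of *Lyz2* in bone, of *Lyz2* and *Adgre1* in the interaction, of *Cx3cr1* in bone over MC and of *Lyz2* in condylar cartilage over MC were lost. Of the 10 genes, 3 kept their rank of mean level when FPKM replaced CPM. Depth limits *C1qa*, *Fcgr3* and *Aif1* in all tissues and most of the 10 genes in condylar cartilage.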

Other observations

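Neutrophil genes (10, among them *S100a8* and *S100a9*) summed to 13.05 CPM in 1 *Fgfr2*+/+ bone library and to 0.508 and 0.880 CPM in the other two, against 0.358 to 1.28 CPM in *Fgfr2*+/S252W bone.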
